A study of Mus musculus with 8 samples.

Results

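Cluster #e6 is 1 of the 8 clusters into which the authors divided the endothelial cells of the adult mouse liver. Its members were all cells that the deposited cell table assigns to multilevel cluster 6, which gave 112 of 1106 endothelial cells and of 3491 cells in the whole series. The authors annotated every one of the 112 cells "lastSinusoid", a name that no other cell carried. A second clustering in the same table (community method) placed 107 of the 112 cells in 1 cluster of 108 cells. The cells came from livers of adult C57BL6/J and fluorescent reporter mice, 8 weeks to 1 year old. The livers were digested with enzymes, and single cells were sorted into well plates for Smart-seq2, a full-length RNA sequencing method. The authors describe a sort of endothelial cells by anti-CD31, by anti-VE-cadherin or by a Cldn5-GFP reporter. Some endothelial cells sat on plates whose names carry Acta2 or Rb, and the labels do not give the sort of each cell. None of the mice was given a treatment or a disease model that the labels name. The labels group the cells by sex, and #e6 held 34 cells of the male and 78 cells of the female pool. The labels do not tie cells to mice, so the 2 pools are the only labelled samples, and a spread between them may be technical.

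Blood enters the liver lobule at the portal vein and the hepatic artery, flows along the sinusoids and leaves by the central vein. Sinusoidal endothelial cells are fenestrated scavenger cells that clear waste molecules through receptors such as stabilin-2 (*Stab2*). Endothelial cells near the central vein are known as a source of the Wnt ligands *Wnt2* and *Wnt9b* and of the Wnt enhancer *Rspo3*, which set the metabolic program of the neighbouring hepatocytes. *Kit* encodes the receptor tyrosine kinase for stem cell factor, and *Bmp2* encodes a ligand by which sinusoidal endothelium controls hepatocyte iron regulation. The authors assigned clusters #e3, #e5, #e8 and #e6 itself to the sinusoids, #e1 and #e7 to the central vein and #e2 to the portal vein. #e2 includes 14 cells of the vessels around the bile ducts. Below, the sinusoidal clusters means #e3, #e5 and #e8, without #e6.

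Of the genes on which the description turns, *Kit*, *Wnt2*, *Wnt9b* and *Stab2* have a promoter in the RefSeq table used here (GRCm38.p6), and these are shown because 3 of them were at high level in #e6 and *Stab2* is the named sinusoidal marker. Each run holds 300 bases from 250 bases before to 50 after the start, 5′ to 3′ on the gene's strand, with CG pairs in capitals. The *Kit* promoter lies at chr5:75574737-75575036 on the plus strand, *Wnt2* at chr6:18030396-18030695, *Wnt9b* at chr11:103749772-103750071 and *Stab2* at chr10:87007893-87008192, the last 3 on the minus strand.
Kit: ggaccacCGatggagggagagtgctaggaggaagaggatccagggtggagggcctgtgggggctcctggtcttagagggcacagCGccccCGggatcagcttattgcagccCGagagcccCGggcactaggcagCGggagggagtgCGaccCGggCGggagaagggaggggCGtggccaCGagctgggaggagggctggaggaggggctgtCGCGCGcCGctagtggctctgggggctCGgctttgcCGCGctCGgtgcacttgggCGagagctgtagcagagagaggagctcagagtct
Wnt2: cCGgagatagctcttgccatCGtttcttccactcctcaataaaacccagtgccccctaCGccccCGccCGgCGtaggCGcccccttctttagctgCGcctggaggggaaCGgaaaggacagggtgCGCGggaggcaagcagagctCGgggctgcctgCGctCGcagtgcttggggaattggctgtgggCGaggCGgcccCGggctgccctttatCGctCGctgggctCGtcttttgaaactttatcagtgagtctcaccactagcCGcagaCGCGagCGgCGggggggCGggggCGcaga
Wnt9b: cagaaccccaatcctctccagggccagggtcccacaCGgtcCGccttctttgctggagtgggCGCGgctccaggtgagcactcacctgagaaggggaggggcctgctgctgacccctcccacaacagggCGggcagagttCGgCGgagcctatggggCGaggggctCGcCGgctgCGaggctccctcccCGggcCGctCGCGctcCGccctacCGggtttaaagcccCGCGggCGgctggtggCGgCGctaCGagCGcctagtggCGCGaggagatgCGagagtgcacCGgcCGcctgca
Stab2: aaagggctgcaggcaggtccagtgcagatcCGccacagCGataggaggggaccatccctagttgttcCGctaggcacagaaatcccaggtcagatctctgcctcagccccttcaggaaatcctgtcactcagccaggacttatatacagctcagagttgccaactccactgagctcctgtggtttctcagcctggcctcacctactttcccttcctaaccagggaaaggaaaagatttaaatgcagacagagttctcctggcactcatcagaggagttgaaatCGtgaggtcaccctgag

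The *Kit*, *Wnt2* and *Wnt9b* windows held 20, 27 and 29 CG pairs, and 26.8%, 15.4% and 12.7% of 27025 promoters of the same length held as many. The *Stab2* window held 4, a number reached by 68.1% of promoters. The median was 7 over all promoters and 13 over the 28 genes with a promoter among the 43 genes that were called higher in #e6 than in the sinusoidal clusters. Short motifs were searched on both strands, and none occurred in the 4 windows. AGATAA, a core of the GATA motif, was in 11.4% of all promoters and in 14.3% of the 28. TGGGAA, a core of the RBPJ motif of Notch signalling, was in 25.5% and 21.4%. The ETS core GGAAGT was in 24.1% and 21.4%. These counts describe letters only and say nothing of factor binding.

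The endothelial cells held between 48812 and 1128421 counts each, with a median of 230825.5. Cells of #e6 were not shallow, with a median of 296860 counts and 4260.5 genes, a spike-in (ERCC) share of 1.65% and a mitochondrial share of 1.23%. Median counts were 320683 in #e1, 303731 in #e3, 153017 in #e5, 177419 in #e7 and 110837 in #e8. The members came from 13 plates, and 1 female plate gave 52.7% of them. Levels are given as CPM, the gene's share of the summed counts of all cells of a cluster in a pool scaled to 1000000 counts, with the male value first, and are compared only for the same gene between clusters. In summed cells, a lower level can mean fewer cells with the transcript or less of it per cell, and the single-cell shares given further on separate these only in part. Because the clusters were made by the authors from the same counts, differences between them are a description, and no test of the clusters was possible. The sort can set the share of a cluster, since sinusoidal cells carry less CD31 and more VE-cadherin, so cluster sizes are not compared.

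The named markers bore out the label for *Kit* and only in part for *Stab2* and *Bmp2*. *Kit* reached 1214 and 1426 CPM in #e6, and the next highest values were 1036 and 558 CPM, both of #e8. #e6 was therefore the highest cluster in both pools, 1.17-fold and 2.56-fold over the next. *Stab2* stood at 611 and 1443 CPM in #e6 against 2806 to 4548 CPM in the 6 sums of #e3, #e5 and #e8. It was thus below every sinusoidal cluster in both pools, but above #e7 (317 and 318 CPM), #e1 (20.3 and 10.2 CPM) and #e2 (279 and 228 CPM). *Bmp2* stood at 469 and 689 CPM, below the male values of all 3 sinusoidal clusters (892 to 1585 CPM) and among their female values (500 to 894 CPM), and above #e7, #e1 and #e2 (87.5 to 182 CPM).

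The general endothelial markers were present at high level. The 8 pan-endothelial genes, among them *Pecam1*, *Cdh5*, *Kdr* and *Tek*, summed to 11131 and 12086 CPM in #e6 against 9630 to 13610 CPM in the sinusoidal clusters, 10750 to 12698 CPM in #e1 and #e7, 7240 and 8404 CPM in #e2 and 6239 and 6565 CPM in the lymphatic #e4. Markers of other cells were low. Hepatocyte genes (12 genes, none at 0) summed to 220 and 322 CPM, against 246 to 734 CPM in the other clusters without the lymphatic #e4, and Kupffer cell genes (12 genes, none at 0) to 206 and 86.1 CPM, against 1436 and 2197 CPM in #e8, 263 and 297 CPM in #e5, 555 and 3.36 CPM in #e7, 108 and 98.8 CPM in #e3, 154 and 37.3 CPM in #e2 and 82.9 and 26.3 CPM in #e1. Of the 9 mast cell and progenitor genes, which matter because these cells also express *Kit*, 6 were at 0 and their sum was 4.04 and 0.23 CPM. Mesenchymal genes (13 genes, 1 at 0) summed to 34.4 and 9.92 CPM, lymphocyte genes (8 genes, 3 at 0) to 11.04 and 1.35 CPM, cholangiocyte genes (6 genes, 1 at 0) to 2.55 and 7.93 CPM, and blood cell genes (7 genes in the table) to 14.2 and 18.97 CPM. The lymphatic list summed to 626 and 515 CPM, of which *Flt4*, a receptor that sinusoidal cells also carry, gave 603 and 502 CPM. The part of these sums in the differences below was not tested.

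**Figure D1:**
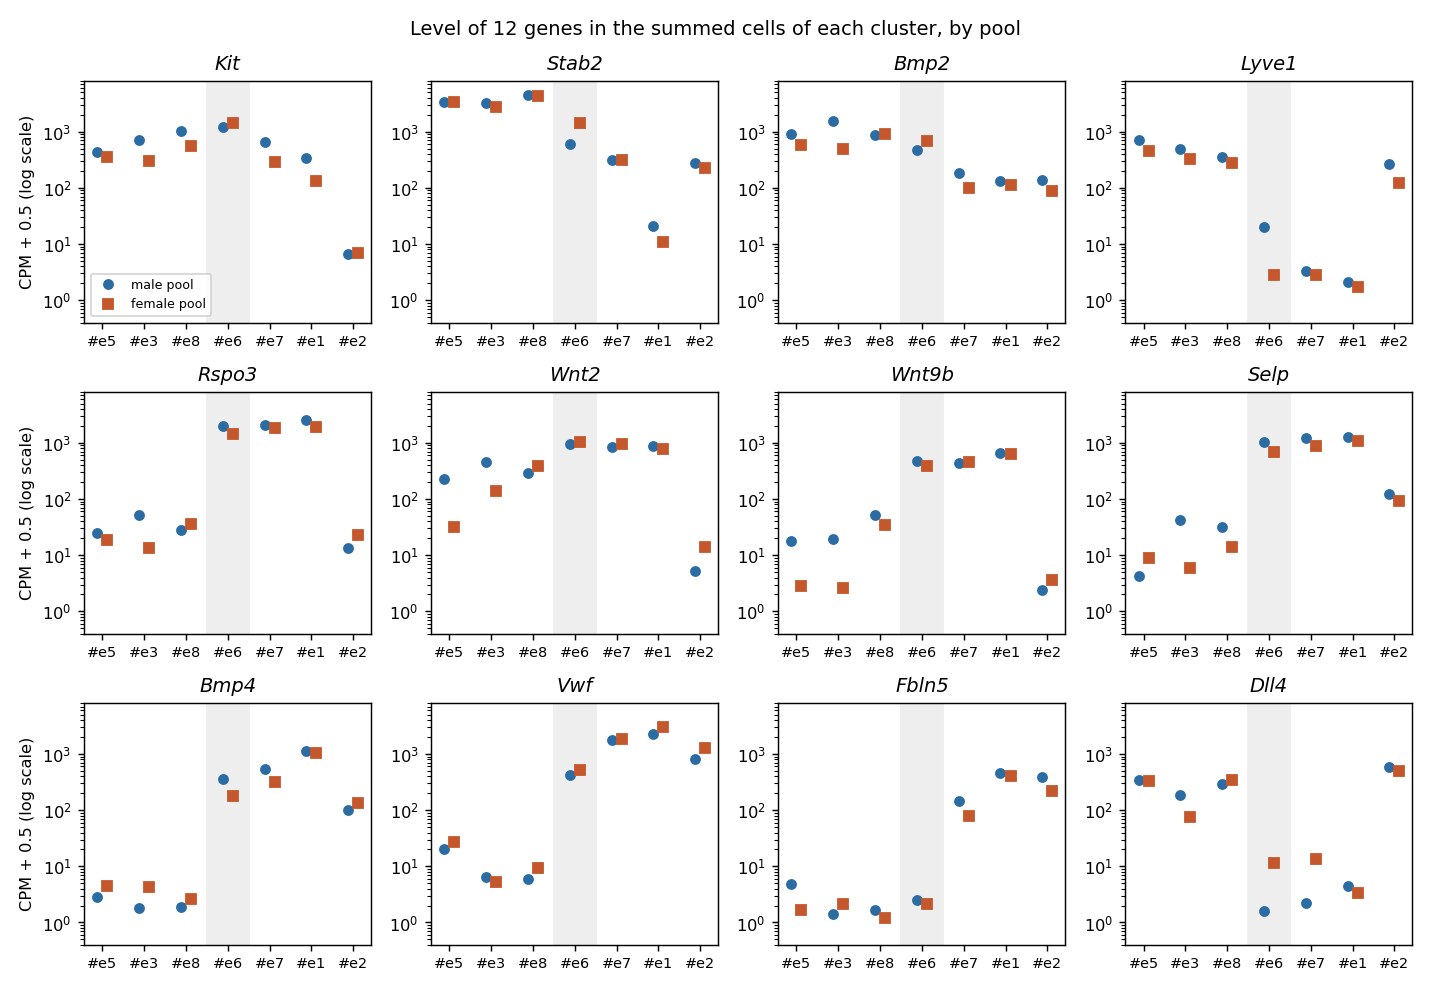
Levels (CPM of summed counts with 0.5 added, logarithmic axis) of 12 genes in 7 endothelial clusters without the lymphatic #e4, with 1 circle for the male and 1 square for the female pool and #e6 shaded. *Kit* was highest in #e6 in both pools, *Stab2* in #e6 lay between the sinusoidal clusters and #e1, and *Rspo3* in #e6 lay near #e7 and #e1.

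The first comparison asked how #e6 differed from the sinusoidal clusters #e3, #e5 and #e8, whose mean was taken as the reference. Genes of the central vein side were higher in #e6, and the scavenger receptor genes *Lyve1* and *Msr1* were lower. *Rspo3* reached 1964 and 1456 CPM against 34.4 and 21.99 CPM (log2 fold change 6.02 ± 0.36, SE, n = 2 pools). *Wnt9b* reached 474 and 392 CPM against 29.4 and 12.7 CPM (4.76 ± 0.63). *Wnt2* reached 966 and 1032 CPM, where the sinusoidal clusters ranged from 31.4 to 458 CPM, and its difference was at least 2-fold in both pools without being called. All 3 secreted Wnt pathway activators were thus at higher level in #e6 than in each sinusoidal cluster. *Wnt2* and *Wnt9b* bind Frizzled receptors, and *Rspo3* raises the number of these receptors on the receiving cell. The 3 other members of the Wnt ligand list that passed the low-count filter included none that was called, and 2 were at least 2-fold lower in both pools.

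A gene was called where the edgeR quasi-likelihood fit over all 8 clusters gave an adjusted p under 0.05, with Benjamini-Hochberg adjustment over the 18321 genes tested, and an absolute log2 fold change of at least 1. Against the sinusoidal clusters 43 genes were called higher, which is 0.235% of those tested, and 2 were called lower, which is 0.0109%. At least 2-fold higher in both pools were 1070 genes (5.84%), and at least 2-fold lower 3399 genes (18.6%). The lower count fell to 830 and the higher to 755 where the higher side had to reach 10 CPM, a limit chosen after the values were seen. The share of 18.6% thus rests largely on genes at low level, and the gene lists were not matched to it by level. These calls use the contrast on which the clusters rest, so nothing is read from the shares beyond the size of the differences. The median fitted log2 fold change of all genes was -0.0017. Without female plate 1, which gave most cells of #e6, 61 genes were called higher and 9 lower. With only the compared clusters in the fit, 12 were called higher and 2 lower. Without #e3, whose female sum held 6 cells, 23 were called higher and 3 lower. *Plvap* (1.92 ± 0.40), *Jam2* (2.30 ± 0.47), *Vcam1*, *Tgfb2*, *Ephx1* and *Gm16587*, given below as called, were then not called.

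**Figure D2:**
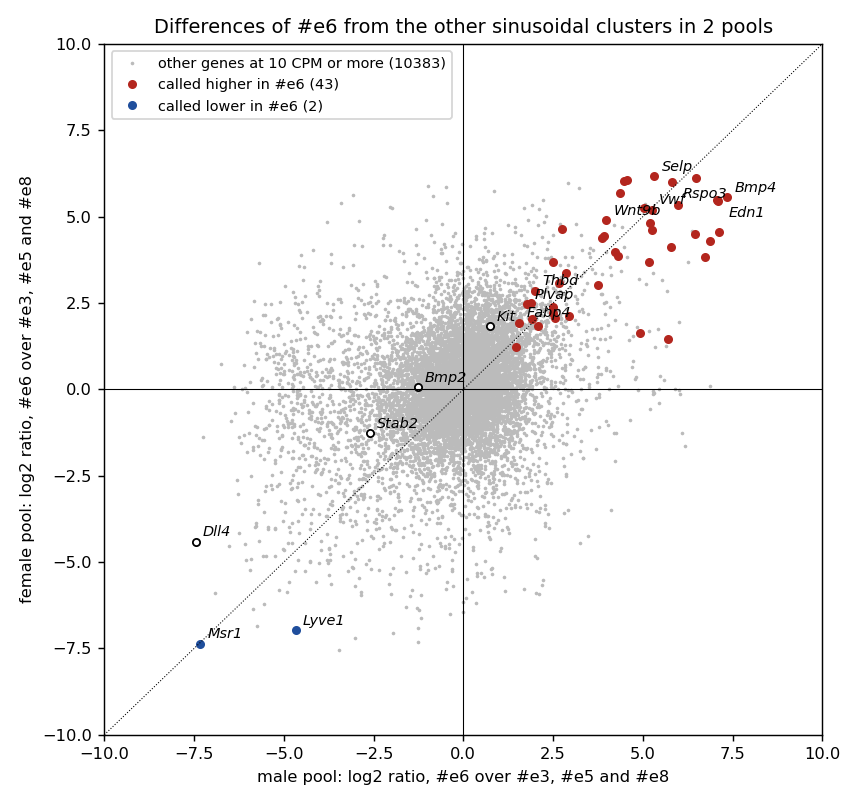
Log2 ratio of CPM in #e6 over the mean of #e3, #e5 and #e8 in the male pool (horizontal) and in the female pool (vertical), with 0.5 CPM added, 1 grey point for each of 10383 genes at 10 CPM or more that were not called, called genes in red or blue and open circles for other named genes. The called genes lay on the same side of 0 in both pools, with *Rspo3*, *Selp*, *Bmp4* and *Vwf* far into the upper right and *Msr1* and *Lyve1* into the lower left.

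The list of pericentral and central vein genes held 24 members, all of which passed the low-count filter. Of these 14 were called higher, 18 were at least 2-fold higher in both pools and none was lower by either rule, with a median log2 fold change of 3.84. Over all genes tested 0.235% were called higher and 5.84% were at least 2-fold higher. *Selp*, the P-selectin that recruits leukocytes, reached 1030 and 690 CPM against 25.3 and 9.07 CPM (log2 fold change 5.96 ± 0.63). *Vwf*, the von Willebrand factor that binds platelets, reached 420 and 509 CPM against 10.5 and 13.3 CPM (5.65 ± 0.31). *Thbd*, the thrombin receptor thrombomodulin, reached 760 and 1065 CPM against 189 and 147 CPM (2.61 ± 0.37). The 3 genes act at the contact of vessel wall and blood. *Vwf* in #e6 remained far below #e7 (1748 and 1879 CPM) and #e1 (2241 and 3017 CPM). *Cdh13*, which encodes T-cadherin, reached 1889 and 2004 CPM against 247 and 455 CPM (2.63 ± 0.43). *Cdh13* was not called with RLE scaling (2.35 ± 0.48), and *Thbd* was not called with sums per plate (2.56 ± 0.64). *Entpd1*, the ectonucleotidase that degrades extracellular ATP and ADP, reached 713 and 413 CPM against 18.9 and 14.2 CPM (5.26 ± 0.47). The list was drawn up with earlier results of these data known, so its count describes the cells and is not independent evidence.

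Among secreted and vasoactive factors, *Bmp4*, a bone morphogenetic protein, reached 357 and 178 CPM against 1.70 and 3.27 CPM (log2 fold change 6.91 ± 0.62). *Edn1*, the precursor of the vasoconstrictor endothelin-1, reached 353 and 110 CPM against 2.10 and 2.03 CPM (6.92 ± 0.58). *Tgfb2* reached 154 and 57.0 CPM against 1.92 and 0.92 CPM (6.52 ± 1.24). These 3 were near 0 in all sinusoidal clusters. *Tgfb2* was not called with the pool as a block (6.44 ± 1.30). The matrix glycoprotein *Fbln2* reached 316 and 312 CPM against 14.9 and 5.57 CPM (5.89 ± 0.71), and the serine protease *Prss23* 329 and 78.1 CPM against 1.89 and 2.86 CPM (6.64 ± 0.48). Smart-seq2 does not mark the strand, so reads of *Prss23* and of the antisense gene *Prss23os*, which was called as well (6.66 ± 0.55), cannot be told apart. *Gm16587* (6.02 ± 1.12), a gene model without a described role, was called higher too. Of the 23 vasoactive genes tested 2 were called higher, *Edn1* and the epoxide hydrolase gene *Ephx1*, with a list median of 0.61, and of 32 paracrine genes 4 were called higher, with a median of -0.39. With only the compared clusters in the fit, *Fbln2* (5.74 ± 0.97) and *Prss23os* (6.46 ± 1.10) were not called, nor were *Tgfb2*, *Gm16587* and *Ephx1*.

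Of 36 adhesion genes tested 6 were called higher and none lower. By the 2-fold rule 8 were higher and 8 lower, where 5.84% and 18.6% of all genes tested were. Called higher were *Jam2* (2155 and 1893 CPM against 367 and 449 CPM), *Vcam1* (594 and 381 CPM against 140 and 107 CPM) and *Cd9* (782 and 767 CPM against 206 and 188 CPM), which encode a junction protein, a leukocyte ligand and a tetraspanin. Without female plate 1, *Vcam1* (2.23 ± 0.52) and *Cd9* (2.11 ± 0.45) were not called. The same 2 genes were not called with RLE scaling, with sums per plate or with only the compared clusters in the fit. *Jam2* was not called with DESeq2 (2.23 ± 0.70) or with RLE scaling (2.23 ± 0.46). *Plvap*, the diaphragm protein of fenestrae and caveolae, was the only called gene among 17 of the caveolae and fenestrae list, with 2087 and 1476 CPM against 610 and 268 CPM (log2 fold change 2.17 ± 0.36). Sinusoidal fenestrae are known to lack such diaphragms. *Cldn5*, a tight junction claudin, was lower in #e6, at 281 and 510 CPM against 793 to 1543 CPM in the sinusoidal clusters, by at least 2-fold in both pools, but was not called. A *Cldn5* reporter was among the sorting marks and the labels do not say on which plates, so the part of the sort in this level cannot be told apart.

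The sinusoidal identity list held 29 tested members, of which 2 were called lower, 8 were at least 2-fold lower in both pools and 1, *Gata4*, was at least 2-fold higher, with a median of -0.75. Over all genes tested 18.6% were at least 2-fold lower and 5.84% higher. *Msr1*, a scavenger receptor, fell to 1.81 and 1.61 CPM against 372 and 347 CPM (log2 fold change -7.48 ± 0.88). *Lyve1*, the hyaluronan receptor, fell to 19.9 and 2.32 CPM against 519 and 353 CPM (-5.18 ± 0.79). Of the 242 male *Lyve1* counts, 235 (97.1%) came from 1 cell. *Lyve1* was therefore almost absent from #e6 outside that cell. *Stab2*, with -1.73 ± 0.48, was 6.07-fold lower in the male and 2.42-fold lower in the female pool and was not called, but it was called without female plate 1 (-2.09 ± 0.35). Other scavenger and lectin genes stood nearer to the sinusoidal level, among them *Mrc1* (698 and 1372 CPM against 1503 to 2358 CPM), *Clec4g* (1482 and 1942 CPM against 2407 to 3516 CPM), *Stab1* (1939 and 1264 CPM against 2085 to 3617 CPM) and *Clec1b* (226 and 293 CPM against 166 to 452 CPM). None of these 4 passed the call. *Gata4*, the transcription factor required for sinusoidal identity, was at 996 and 723 CPM against 134 to 550 CPM.

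Of 23 tested periportal and portal vein genes 2 were called lower, namely *Msr1* and *Lyve1*, which also belong to the sinusoidal list, 14 were at least 2-fold lower in both pools and none was higher, with a median of -1.48. *Dll4*, a Notch ligand, stood at 1.07 and 11.2 CPM in #e6 against 74.1 to 349 CPM in the sinusoidal clusters. The Notch targets *Hey1* (0.08 and 0.34 CPM, 0 to 32.1 CPM in the sinusoidal clusters), *Nrarp* (1.65 and 2.88 CPM, 1.61 to 170 CPM) and *Hes1* (143 and 80.9 CPM, 94.3 to 388 CPM) were not called. Of 17 Notch genes none was called, 5 were at least 2-fold lower and 3 at least 2-fold higher, namely *Dll1*, *Rfng* and *Maml1*. For this count and the periportal one, the shares over all genes tested were 18.6% lower and 5.84% higher. The receptor *Notch1* itself was at 805 and 441 CPM, among the sinusoidal values of 554 to 1820 CPM.

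The receptor gene *Kit* stood highest in #e6, with no call in its pathway. Its fitted log2 fold change over the sinusoidal mean was 1.35 ± 0.70, with 1.67-fold in the male and 3.54-fold in the female pool, and it was not called. Of 33 genes for the receptor, its ligand and its signal adaptors none was called, 6 were at least 2-fold lower and 1 at least 2-fold higher, with a median of -0.15, shares near those of all genes tested (18.6% and 5.84%). The higher one was *Socs1*, a suppressor of cytokine signalling, at 104 and 60.1 CPM against 43.0 and 8.57 CPM. The ligand gene *Kitl* was at 13.5 and 50.3 CPM in #e6, against 1.07 to 143 CPM in the sinusoidal clusters. Of 26 genes of the BMP and iron list 1 was called, *Bmp4*. *Bmp6*, the partner of *Bmp2* in iron regulation, was at 28.9 and 129 CPM against 93.5 to 312 CPM. Of 18 chemokine genes none was called and 9 were at least 2-fold lower, with a median of -0.78, and of 16 cell cycle genes 7 were at least 2-fold lower and none higher. Of 28 immediate early and stress genes none was called and 7 were at least 2-fold lower, where 18.6% of all genes tested were. None of the chemokine, cell cycle and stress counts rests on a called gene, and Kupffer cell genes moved with them, 8 of 12 being at least 2-fold lower in #e6 than in the sinusoidal clusters (median -1.60, none called), and their part in the lower scavenger and chemokine genes was not tested.

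The second comparison set #e6 beside the central vein cluster #e7. The pooled levels of *Kit*, *Stab2* and *Bmp2* were higher in #e6 in both pools, though on male plate 3 *Stab2* was at 68.7 CPM in #e6 and 280 CPM in #e7. Of 24 pericentral and central vein genes none was called, 2 were at least 2-fold higher in #e6 and 3 at least 2-fold lower, with a median of -0.48. *Vwf* was among the lower ones. *Rspo3* stood at 2060 and 1857 CPM in #e7, *Wnt2* at 851 and 972 CPM, *Wnt9b* at 429 and 460 CPM and *Selp* at 1197 and 896 CPM, each within 1.4-fold of #e6. *Kit* stood at 647 and 287 CPM, a fitted log2 fold change of 1.24 ± 0.92. Called higher were 2 genes (0.0109%) and lower 3 genes (0.0164%), with 3327 genes at least 2-fold higher in both pools (18.2%) and 1081 at least 2-fold lower (5.9%). None of these 5 genes was called with only #e6 and #e7 in the fit, while a fit blocked on the pool gave 12 calls (4 higher and 8 lower). *Ier3*, an early response gene, was at 273 and 198 CPM against 1.36 and 1.77 CPM (6.93 ± 0.94), and the nuclear RNA *Malat1* at 2054 and 1536 CPM against 525 and 397 CPM (1.68 ± 0.25). *Ehd2*, which restrains caveolae at the membrane, was at 0.49 and 1.42 CPM against 163 and 230 CPM (-7.95 ± 1.07), and *Fbln5*, an elastic fibre protein, at 1.98 and 1.61 CPM against 144 and 77.3 CPM (-6.21 ± 0.91). The elongation factor *Eef1a1* was at 1253 and 1487 CPM against 3049 and 3091 CPM (-1.46 ± 0.23). Without female plate 1 the calls were 4 higher and 5 lower, and *Malat1* (1.49 ± 0.42) and *Eef1a1* (-1.32 ± 0.33) were not among them.

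Several measures of the whole library moved with this contrast. The 86 ribosomal protein genes took 3.75% and 2.04% of the counts in #e7 against 1.49% and 0.9998% in #e6. Spike-in reads took a median of 5.05% in #e7 cells against 1.65% in #e6. Of 28 immediate early and stress genes 14 were at least 2-fold higher in #e6 and none was lower, with a median of 1.45. Over all genes tested the shares were 18.2% and 5.9%. The female-specific transcript *Xist* was at 36.8 CPM in the female pool of #e7 against 421 CPM in #e6. The part of these in the *Ier3*, *Malat1* and *Eef1a1* differences was not tested.

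In the third comparison, with the central vein cluster #e1, *Stab2* and *Cldn5* were higher in #e6. Called higher in #e6 were 2 genes (0.0109%), *Stab2* (611 and 1443 CPM against 20.3 and 10.2 CPM, log2 fold change 6.06 ± 0.66) and *Cldn5* (281 and 510 CPM against 14.1 and 10.01 CPM, 5.03 ± 0.47). Called lower were also 2 genes (0.0109%), *Fbln5* (1.98 and 1.61 CPM against 455 and 401 CPM, -7.90 ± 0.98) and *Ehd2* (0.49 and 1.42 CPM against 82.4 and 134 CPM, -6.78 ± 1.02). At least 2-fold higher in both pools were 1461 genes (7.97%) and lower 1588 genes (8.67%). Without female plate 1, 8 genes were called higher and 6 lower. With only #e6 and #e1 in the fit, *Stab2* (6.10 ± 0.62), *Cldn5* (5.06 ± 0.49) and *Ehd2* (-6.74 ± 0.88) were not called. *Rspo3* (2605 and 1920 CPM in #e1) and *Wnt2* (896 and 786 CPM) were within 1.4-fold of #e6. *Bmp4* was higher in #e1, at 1154 and 1061 CPM, as was *Edn1*, at 714 and 709 CPM. Of the sinusoidal list 11 of 29 genes were at least 2-fold higher in #e6 and none lower, with a median of 0.88, and of the pericentral list 9 of 24 were at least 2-fold lower and 2 higher, with a median of -0.44. Of 12 Kupffer cell genes 5 were at least 2-fold higher in #e6 than in #e1 and 1 lower, none was called, and their part in these differences was not tested.

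The fourth comparison, with the portal vein cluster #e2, separated #e6 from a cluster with little *Kit*, *Wnt2*, *Wnt9b* or *Rspo3*. Called higher were 12 genes (0.0655%) and lower 11 genes (0.06%), and 1454 (7.94%) and 1781 (9.72%) were at least 2-fold higher and lower in both pools. *Kit* was nearly absent from #e2, at 6.08 and 6.31 CPM, which made it 200-fold and 226-fold higher in #e6 (log2 fold change 7.76 ± 1.23). *Wnt9b* (7.45 ± 1.10), *Wnt2* (6.83 ± 0.90) and *Rspo3* (6.63 ± 0.58) were called higher too, as were *Prelp* (4.63 ± 0.53), *Dhrs3* (3.16 ± 0.44), a retinaldehyde reductase, *Tcn2* (2.76 ± 0.39), the vitamin B12 carrier, *Pde2a*, *Plpp1* and *Kdr*, the main VEGF receptor (1180 and 1799 CPM against 407 and 451 CPM). Called lower were *Sdc1* (0.74 and 1.53 CPM against 863 and 700 CPM), *Adgrg6* (0.16 and 1.01 CPM against 364 and 445 CPM), *Cd34* (1.40 and 6.14 CPM against 385 and 876 CPM), *Msr1*, *Cd200*, *Cavin3*, *Fbln5*, *Ehd2*, *Ldb2* and *Ltbp4*. Of 23 periportal genes 5 were called lower and 22 were at least 2-fold lower, with a median of -4.09. Without female plate 1, 43 genes were called higher and 31 lower, and *Kdr* (1.13 ± 0.37) and *Cd34* (-5.21 ± 1.13) were not among them. With only #e6 and #e2 in the fit, 41 were called higher and 46 lower, without *Kdr* and *Dhrs3*. *Adgrg6* was not called with the pool as a block (-9.33 ± 1.77).

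To place #e6 between the sinusoidal clusters and #e1, genes at least 4-fold apart between these 2 sides and at 50 CPM or more on the higher side in both pools were taken without using #e6 or #e7. Each gene's log2 level in #e6 was then expressed on a scale from 0 (mean of #e3, #e5 and #e8) to 1 (#e1). For the 148 genes higher in #e1 the median position of #e6 was 0.71 in the male and 0.61 in the female pool, against 0.85 and 0.78 for #e7. For the 179 genes lower in #e1 it was 0.48 and 0.33, against 0.78 and 0.64 for #e7. In both gene sets and both pools #e6 lay nearer the sinusoidal side than #e7. The 179 genes included 5 Kupffer cell genes (*C1qa*, *C1qc*, *Cd5l*, *Clec4f* and *Lyz2*), and #e7 stood apart in its ribosomal and spike-in shares and in *Xist* as given above, and the part of these in the positions was not tested. Single genes did not all lie midway. Among the genes higher in #e1, 26 were above 0.75 in both pools, for example *Rspo3*, *Wnt9b*, *Selp*, *Cdh13*, *Jam2* and *Lhx6*, and 16 were below 0.25 in both, for example *Fbln5*, *Ehd2*, *Cd200* and *Aldh1a1*. Among the genes lower in #e1, 24 were below 0.25 in both pools, for example *Clec1b*, *Ets1* and *Irf8*, and 9 were above 0.75 in both, for example *Msr1*, *Lama4* and *Cxcl9*. The genes named for their position were picked after the values were seen. *Cxcl9* is an interferon-induced chemokine and *Lama4* a laminin chain.

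**Figure D3:**
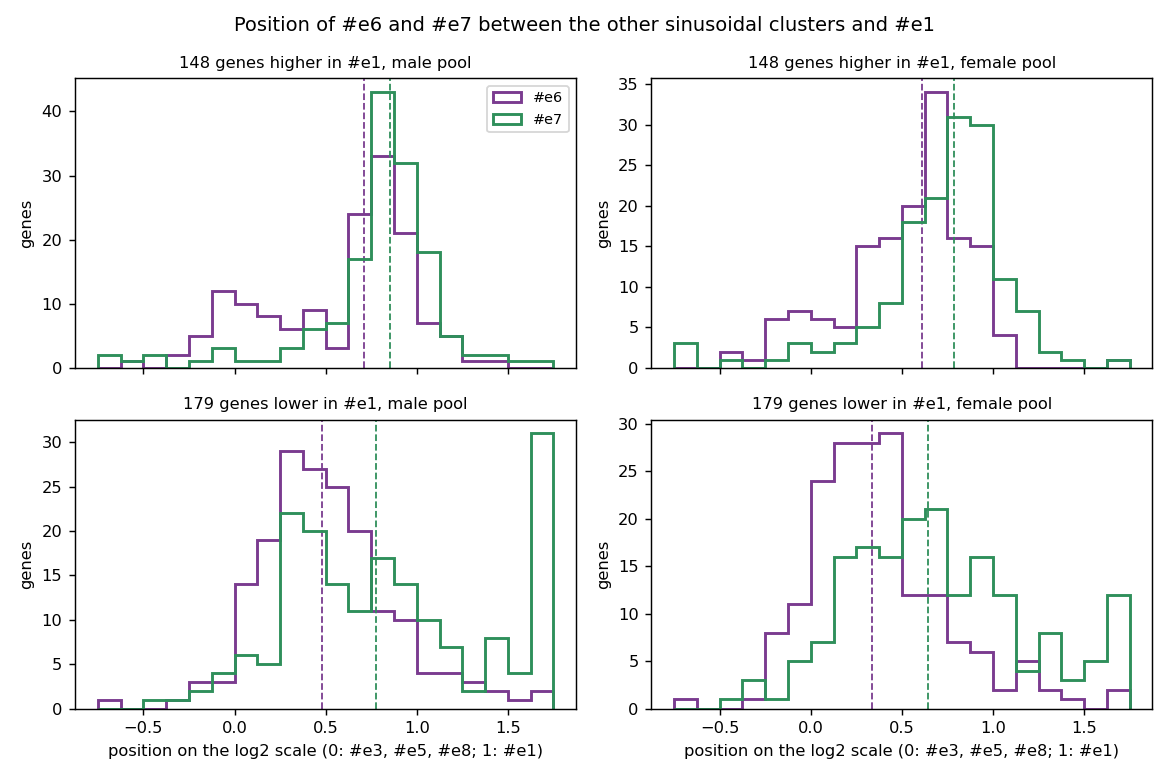
Number of genes by position of #e6 and #e7 between the sinusoidal mean (0) and #e1 (1) on the log2 scale, for the 148 genes higher and the 179 genes lower in #e1 in each pool, with dashed lines at the medians and positions beyond the axis collected in the end bins. The #e6 positions spread over the whole range with medians below those of #e7 in both sets.

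Few genes were specific to #e6 by level. Of the genes at 50 CPM or more in both pools and with a count in at least 50% of cells, 62 were highest in #e6 of all 8 clusters in both pools, and for 0 of the 62 was the level 2-fold over the next cluster in both pools. The same count was 108 in #e1, 78 in #e2, 127 in #e3, 60 in #e5, 144 in #e7, 92 in #e8 and 220 in the lymphatic #e4, with 5, 14, 2, 0, 1, 3 and 55 genes at 2-fold. The genes most particular to #e6 by this ratio were *F2r*, the thrombin receptor PAR1 (1383 and 1142 CPM, 2.22-fold and 1.62-fold over the next cluster), the adhesion receptor *Adgrl4* (1552 and 1592 CPM, 2.01-fold and 1.56-fold) and *Slc26a10* (1199 and 1523 CPM, 1.66-fold and 1.52-fold). *Pmp22*, *Il13ra1*, *Numb* and *Thsd1* followed, and then *Tcn2* (1888 and 2005 CPM, 1.34-fold and 1.40-fold). These genes were found by ranking all genes on these cells.

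In single cells, genes of the sinusoidal and of the central vein side were found together. A level of 100 CPM, chosen after the values were seen, was used as the limit, since shares of cells with any count include a low background. *Lyve1* had a count in 9.8% of #e6 cells after thinning each cell to 50000 counts but reached 100 CPM in 0.893% of them, 1 cell. *Kit* reached 100 CPM in 88.4% of the 112 cells (95% exact binomial interval 81.0 to 93.7%), with 88.2% of the male and 88.5% of the female cells. It did so in 68.6% of #e3, 65.8% of #e8, 35.8% of #e5, 31.6% of #e1, 22% of #e7 and 1.56% of #e2 cells. *Rspo3* reached it in 91.1% of #e6 cells, against 6.78%, 3.31% and 5.16% in #e3, #e5 and #e8, 80.7% in #e7 and 100% in #e1. *Stab2* reached it in 55.4% of #e6 cells, 35.3% of the male and 64.1% of the female ones, against 96.7 to 99.6% in the sinusoidal clusters, 18.7% in #e7 and 1.97% in #e1. These intervals cover counting error only, and cells of 1 pool share their source.

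Both *Stab2* and *Rspo3* were at 100 CPM or more in 52 of the 112 cells (46.4%), against 4.52 to 6.78% in #e8 and #e3, 3.31% in #e5, 13.3% in #e7 and 1.97% in #e1. *Kit* and *Rspo3* were together in 91 cells (81.3%), against 19.3% in #e7 and 31.6% in #e1. *Rspo3* and *Wnt2* were together in 94 cells (83.9%), and in 42.7% of #e7 and 86.2% of #e1 cells. *Kit* and *Lyve1* were together in 1 cell (0.893%), against 31.8% in #e3. A cell of #e6 thus usually carried *Kit*, *Rspo3* and *Wnt2* at once, and in nearly equal numbers did or did not carry *Stab2* beside *Rspo3*. The sort used a scatter gate for doublet discrimination, no doublet caller was run here, and the part of doublets in these shares was not tested.

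**Figure D4:**
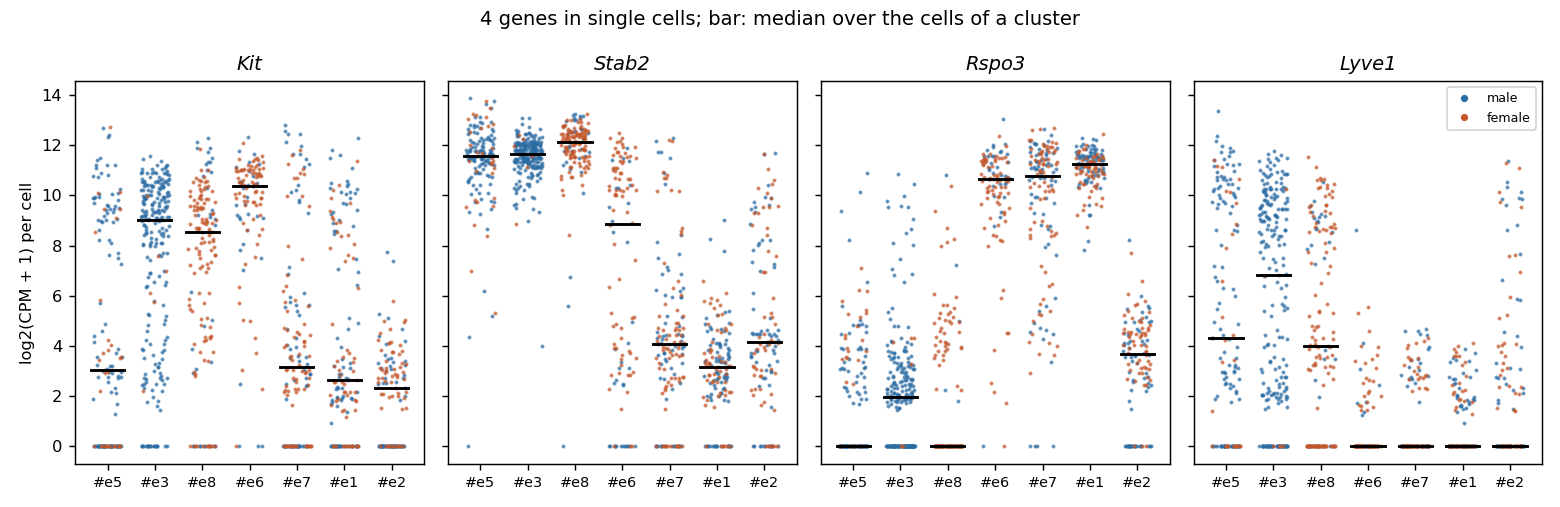
Levels of *Kit*, *Stab2*, *Rspo3* and *Lyve1* in single cells (log2 of CPM + 1) in #e6 and its comparison clusters, with 1 point per cell in the colour of its pool and a bar at the median of each cluster. *Stab2* in #e6 ranged from 0 to 5715 CPM with a median of 461 CPM, while *Rspo3* had a median of 1604 CPM.

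Among the 112 cells the level of *Kit* had a median of 1341 CPM with quartiles of 557 and 2026 CPM, and of *Wnt2* a median of 1023 CPM with quartiles of 569 and 1484 CPM. *Stab2* was spread more widely, with a median of 461 CPM and quartiles of 7.8 and 2005 CPM. *Vwf* had a median of 34.1 CPM and an upper quartile of 804 CPM, and reached 100 CPM in 42.0% of #e6 cells, against 54.0% in #e7 and 92.8% in #e1. *Kit* and *Wnt2* were thus present in most cells, while *Stab2* and *Vwf* were at high level in a part of them. Both *Stab2* and *Vwf* reached 100 CPM in 11.6% of the cells.

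The plates showed which of these levels were steady. There were 5 plates with at least 5 cells of #e6, which held 103 of the 112 cells, namely male plates 1 to 3 with 13, 7 and 6 cells and female plates 1 and 2 with 59 and 18 cells. *Kit* was at 684, 1077 and 1231 CPM on the male and at 1415 and 1518 CPM on the female plates (1185 ± 328, SD, n = 5 plates). *Wnt2* was at 1066, 827 and 1092 CPM on the male and at 1037 and 974 CPM on the female plates (999 ± 106). *Rspo3* was at 2783, 2077 and 1909 CPM and at 1418 and 1671 CPM (1972 ± 517). These 3 genes were high on every plate. *Stab2* was at 1.71, 810 and 68.7 CPM on the male and at 1520 and 997 CPM on the female plates (680 ± 644). It was close to absent on male plate 1, where 1 of 13 thinned cells had a count, while *Kit* had a count in 10 and *Mrc1* in 12 of them. *Cldn5* was at 210, 107 and 9.30 CPM and at 562 and 208 CPM, and *Vwf* at 663, 37.6 and 747 CPM and at 433 and 876 CPM. The levels of *Stab2*, *Cldn5* and *Vwf* therefore differed between plates far more than those of *Kit* or *Wnt2*. Plates of 1 pool share their source, and the labels do not say which mice each plate held.

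**Figure D5:**
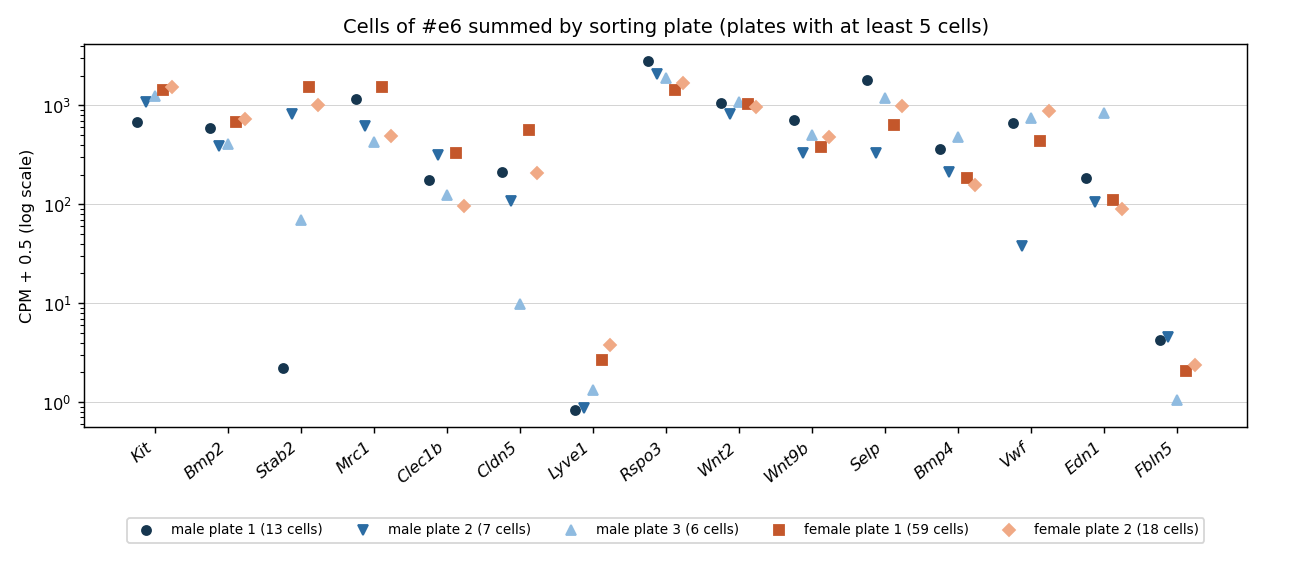
Levels (CPM of summed counts with 0.5 added, logarithmic axis) of 15 genes in #e6 on each of the 5 plates with at least 5 of its cells, with 1 symbol per plate, blue for male and orange for female. *Kit*, *Wnt2* and *Rspo3* were at 684 CPM or more on every plate, and *Stab2* ranged from 1.71 to 1520 CPM.

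On plates that held at least 5 cells of both #e6 and a second cluster, the 2 could be compared within the plate. *Kit* was higher in #e6 in 6 of 6 such pairs with #e3, #e5 or #e8 (1.31-fold to 4.89-fold), in 2 of 2 with #e7, in 4 of 4 with #e1 and in 5 of 5 with #e2. For *Stab2* against other clusters the pairs were mixed, with #e6 higher in 1 of 2 with #e7 (0.246-fold on male plate 3) and in 3 of 5 with #e2 (0.0072-fold on male plate 1). *Rspo3* was higher in 6 of 6 pairs with the sinusoidal clusters (14.1-fold to 77.0-fold), and *Stab2* and *Lyve1* were lower in 6 of 6. Against #e1, *Cldn5* was higher in 4 of 4 pairs and *Stab2* in 3 of 4. *Bmp2* was lower in #e6 in 5 of 6 sinusoidal pairs and higher in 2 of 2 with #e7 and 4 of 4 with #e1. Pairs on 1 plate share its sort and lane, and several pairs share the #e6 cells of a plate.

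With 1 pool of each sex, male and female cells of #e6 could not be tested against each other. The labels of sex held for the pools, with *Xist* at 0.08 and 421 CPM and *Ddx3y*, a Y-linked gene, at 67.0 and 0 CPM. Of 3007 genes at 100 CPM or more in a pool, 318 were at least 2-fold higher in the male and 302 in the female pool. The level of *Stab2* was 611 CPM (95% Poisson interval 597 to 625) in the male and 1443 CPM (1429 to 1458) in the female cells. *Edn1* was at 353 CPM (343 to 364) and 110 CPM (106 to 114), *Bmp4* at 357 CPM (346 to 368) and 178 CPM (173 to 183), and the immediate early gene *Fos* at 756 CPM (740 to 771) and 214 CPM (208 to 219). *Kit*, with 1214 CPM (1194 to 1233) and 1426 CPM (1412 to 1440), differed by 1.18-fold. These intervals cover counting error only, since PCR reads without molecular identifiers are not independent molecules. The plate values varied within the male pool as widely as between the pools for *Stab2* (1.71 to 810 CPM), *Edn1* (104 to 827 CPM) and *Fos* (1.92 to 2134 CPM), so for these genes sex and plate cannot be told apart.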

How the data were processed

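Single cells were sequenced with Smart-seq2 by the authors, 1 plate per lane, as 50 base single reads. The deposited table holds raw read counts per gene and cell for 46609 rows, and the submitters' processing notes name Bowtie, Bowtie2, Subread featureCounts, Seurat and GRCm38. The authors removed poor and contaminated cells and clustered the rest with pagoda2. Here the 92 ERCC spike-ins were dropped, which left 46517 genes, and 42687 symbols matched the reference names. No column was left unmapped, no cell identifier was shared between the pools and no 2 cells held identical counts. The table of all cells and the other cell classes were used only to count cells. Columns of cluster names in the cell table are the authors' own and were used as given.

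Counts were summed per cluster and pool (sums of at least 5 cells) and fitted in edgeR 4.0.16 (R 4.3.3, limma 3.58.1) with TMM, filterByExpr, and a quasi-likelihood test over all 8 clusters. Each SE of a fold change is its absolute value divided by the root of the F statistic. It rests on a spread estimated over all clusters in the fit and is not the spread of the 2 pools of #e6. The script was tested on simulated data. DESeq2 1.42.0 was an alternative. Other values were computed in Python 3.11.15 with pandas 2.3.3, numpy 2.4.6 and scipy 1.17.1, and drawn with matplotlib 3.10.9. No pseudocount entered the fold values, and 0.5 CPM was added for log2 ratios and the position scale. Shares at 100 CPM used all cells unthinned. Shares of cells with a count used cells thinned to 50000 counts, which left out 5 endothelial cells and none of #e6. The limits of 100 CPM for single cells and 10 CPM for 2-fold counts were chosen after the values were seen. Named were *Kit*, *Stab2* and *Bmp2*, endothelial genes the study's text names, up to 10 called genes a direction and contrast with a count in at least 50% of cells on the higher side and 2-fold apart in both pools, and up to 6 members of each gene list, with further members of a pathway described together. Other genes named were chosen after their values were seen. Members and gene lists were chosen with earlier results of these data known. Pairing comes from the labels, since the sums of all clusters in a pool come from 1 sample, and the pool as a block was an alternative. The male minus female deviations of #e6 correlated with those of the other clusters by 0.01 to 0.11 over 9447 genes.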

Additional observations from a re-analysis of the deposited data

Results flagged for a closer look

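*Bmp2* differed between the pools in its level against the sinusoidal clusters, lower in #e6 in the male and near the same in the female pool. Its log2 ratio in #e6 over the mean of #e3, #e5 and #e8 was -1.27 in the male and 0.061 in the female pool, from 469 against 1131 CPM and from 689 against 661 CPM. With 1 pool per sex the difference between the pools was not tested.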

How the results depend on the processing

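Calls from 2 pools were few and depended on the settings. Against #e3, #e5 and #e8, where 45 genes were called, DESeq2 gave 275 (129 higher and 146 lower), no low-count filter 228, cells thinned to 50000 counts 71, sums of at least 10 cells 69, the fit without #e3 26, only the compared clusters 14, and the fit without female plate 1 (added after seeing the data) 70. Against #e7, with 5 calls, these gave 784 (601 higher and 183 lower), 34, 8 and 26 for the first 4, 0 with only the compared clusters in edgeR, where 1349 of 12882 genes had an unadjusted p under 0.05, and 9 without the plate. RLE scaling gave 3, sums per plate 9 and the pool as a replicate block 12 (4 higher and 8 lower). Against #e1, with 4 calls, they gave 168, 28, 12 and 15, with 9 for sums per plate, 1 for only the compared clusters and 14 without the plate. Against #e2, with 23 calls, they gave 362, 79, 47 and 67, with 235 for sums per plate, 87 for only the compared clusters and 74 without the plate. The cause of these shifts was not tested. Among 87 fold changes of named genes the replicate block ended 5 calls, *Tgfb2*, *Gstm5*, *Myrip* and *AU021092* against the sinusoidal clusters and *Adgrg6* against #e2. It gave 41, 6 and 25 calls against the sinusoidal clusters, #e1 and #e2. Genes 2-fold apart with 1 pool left out numbered 9869 to 10299, 10703 to 10811, 8419 to 9034 and 8773 to 9340 in the same order, and at 10 CPM or more 1585, 2254, 1385 and 1744. Of the 87, 1 changed sign in a setting tried, *Bmp2* against the sinusoidal clusters, which was not called (-0.54, and 0.061 in the female pool alone). The 87 include fold changes of *Kit*, *Stab2* and *Bmp2* that were not called and could not lose a call. Among the called ones, 41 lost the call with only the compared clusters, 19 with sums per plate and 15 with RLE scaling. Without female plate 1 the number was 15, with DESeq2 4, and without #e3 21 of the 45 against the sinusoidal clusters. Shares with at least 20 counts per cell in place of 1 fell from 71.4% to 53.6% for *Stab2*, from 81.2% to 71.4% for *Bmp2*, from 69.6% to 41.1% for *Vwf* and from 9.82% to 1.79% for *Lyve1*, and unthinned they were 86.6%, 92.0%, 91.1% and 28.6%.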
